A study of Homo sapiens with 36 samples.

Results

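The small nucleolar RNA (snoRNA) host genes are long non-coding RNA genes whose introns carry snoRNAs. They were taken as the rows of the mRNA count table with a symbol of SNHG followed by a number, together with GAS5, ZFAS1, EPB41L4A-AS1 and DANCR, and 32 rows matched. SNHG27 and SNHG28 were at 0 in every library, which left 30 host genes of the 39317 genes with any count, in a table of 60591 genes. Apart from the rows at 0, the rule used names and not measured values. It was set with earlier results of these data known.

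A snoRNA host transcript is spliced, the snoRNA is trimmed out of the excised intron, and the joined exons remain as a spliced RNA. Box C/D snoRNAs guide 2′-O-methylation of ribosomal and other RNAs, box H/ACA snoRNAs guide pseudouridylation, and the small Cajal body RNAs guide both on spliceosomal RNAs. Many host transcripts begin with a terminal oligopyrimidine (TOP) sequence, as the mRNAs of ribosomal proteins do, and many carry short reading frames whose translation leads the spliced RNA into nonsense-mediated decay, so their levels are known to respond to growth, translation and stress.

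RNA was sequenced from Caco-2 and HT-29 cells, which are both established human colorectal adenocarcinoma lines, in 6 groups with 3 libraries each, 18 in all. Caco-2 cells had been kept for 21 days under conditions for differentiation, in which they take on features of enterocytes (dCaco-2), whereas no differentiation was stated for HT-29 cells. In each line, control cells received 0.5 µl DMSO per ml of medium, other cells received 300 µM cobalt(II) chloride (CoCl2) for 24 h, and the remaining cells received the oxyquinoline derivative 4896-3212 (OD) in DMSO at 5 µM. The 24 h exposure to OD is given by the sample labels. The labels name no DMSO for CoCl2, whereas the study's methods, which describe Caco-2 cells, state that DMSO was added to the CoCl2 medium too. Both agents inhibit the hydroxylases that mark the hypoxia-inducible factors (HIF) for degradation. Differentiation and cell line cannot be told apart, because all Caco-2 cells were differentiated.

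Library totals ranged from 12925719 to 22332639 counts, and the host genes took between 0.115% and 0.349% of them. CPM denotes counts divided by the library size, which was scaled with TMM factors (trimmed mean of M values) in each line. CPM values of different lines therefore do not share a scale, except where all 18 libraries are said to be scaled together. Of the 6 epithelial markers, 3 were higher and 3 lower in HT-29 than in Caco-2 controls. Among them, KRT8 averaged 1077 CPM in Caco-2 and 2192 CPM in HT-29 controls. Of 8 markers of other cell types, COL1A1 reached 405 counts in a library and PECAM1 172, while the other 6 stayed at 19 or fewer. Among the 6 enterocyte markers, all were lower in HT-29 than in Caco-2 controls, with a median log2 difference of -7.11, and APOA1 averaged 2545 CPM against 0.274 CPM. A gene was said to have risen or fallen at an adjusted p under 0.05 (edgeR quasi-likelihood test, Benjamini-Hochberg over all genes tested), and changes of over 1 on the log2 scale are named as such. The study's methods call the replicates of a condition biological, in a text on Caco-2 cells. The p-values rest on the spread between libraries within groups, with a single estimate per gene shared by all groups of a fit. In bulk RNA, fewer cells with a transcript and less transcript per cell cannot be told apart.

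All 30 host genes are annotated as lncRNA in GENCODE 44, and each held at least 1 small RNA of the RefSeq annotation, 150 in all, of which 121 were box C/D, 23 box H/ACA and 4 Cajal body RNAs. SNHG14, the imprinted transcript that runs antisense to UBE3A, held 83 of them. GAS5 held 11, SNHG1 held 9 and ZFAS1 held 3. Libraries of this kind, made for mRNA, report mainly the spliced host. Of 134 small RNAs with a row of their own, 115 were at 0 in every library, and the highest count in any library was 28. Many of those at 0 overlapped an exon of a host transcript, so a 0 does not show that their reads were absent. SNORD50A, which overlaps an exon of SNHG5, had no row, and its reads could not be told from those of SNHG5. Another gene overlapped 18 host genes on the opposite strand and 10 on the same strand. Whether the counting used strand was not given in the sources used here, so reads of overlapping genes cannot be told apart.

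The first bases of the transcripts are shown because the TOP sequence, a C followed by a run of C and T, is the feature many of these genes share with the ribosomal protein genes. Each line covers 10 bases before and 20 bases from the RefSeq start (GRCh38.p14), 5′ to 3′, with the oligopyrimidine run in capitals. ZFAS1 (chr20:49278632-49278661, plus strand), SNHG32 (chr6:31834906-31834935, plus), SNHG5 (chr6:85678714-85678743, minus), SNHG7 (chr9:136728165-136728194, minus), SNHG8 (chr4:118278752-118278781, plus), SNHG16 (chr17:76557754-76557783, plus), SNHG4 (chr5:139274091-139274120, plus) and DANCR (chr4:52712384-52712413, plus) held such a run. SNHG1 (chr11:62855866-62855895, minus) is shown without one.
ZFAS1: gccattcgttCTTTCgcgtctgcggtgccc
SNHG32: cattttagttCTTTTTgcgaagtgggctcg
SNHG5: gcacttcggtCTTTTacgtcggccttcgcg
SNHG7: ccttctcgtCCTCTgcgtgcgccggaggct
SNHG8: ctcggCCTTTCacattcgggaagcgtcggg
SNHG16: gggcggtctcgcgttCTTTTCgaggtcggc
SNHG4: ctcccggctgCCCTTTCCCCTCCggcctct
DANCR: tgcgcgccccgCCCTTgcccagagtcttcc
SNHG1: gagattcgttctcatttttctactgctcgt
In ZFAS1, SNHG32, SNHG5 and SNHG4 the run began exactly at the annotated start. It began 1 base before the start in SNHG7 and 5 bases before it in SNHG8, where most of the run lies outside the annotated transcript. In DANCR and SNHG16 it began 1 and 5 bases after the start.

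A promoter window of 250 bases before and 50 bases after the start was given for 26 of the 30 host genes. An oligopyrimidine start was defined as a C followed by at least 4 C or T, beginning up to 5 bases before or after the start. It was found in 13 of these 26 (50.0%) and in 21.1% of 35116 promoters. The letters GCGTG, one form of the core of the hypoxia response element, were present on either strand in 16 of 26 (61.5%), against 36.5% of all promoters, and the windows of the host genes had a median GC content of 61.8% against 58.7%. ACGTG, the other form, was present in 5 of 26 (19.2%) against 21.4%, and CACGTG, an E-box that holds ACGTG, in 2 of 26 (7.69%) against 7.26%. A match is a description of letters and does not show that a factor binds there. The windows of SNHG7, which rose most in Caco-2 cells, and of SNHG1, whose direction differed between the lines, are shown with ACGTG and GCGTG on either strand in capitals. SNHG7 lies at chr9:136728135-136728434 and SNHG1 at chr11:62855836-62856135, both on the minus strand.
SNHG7: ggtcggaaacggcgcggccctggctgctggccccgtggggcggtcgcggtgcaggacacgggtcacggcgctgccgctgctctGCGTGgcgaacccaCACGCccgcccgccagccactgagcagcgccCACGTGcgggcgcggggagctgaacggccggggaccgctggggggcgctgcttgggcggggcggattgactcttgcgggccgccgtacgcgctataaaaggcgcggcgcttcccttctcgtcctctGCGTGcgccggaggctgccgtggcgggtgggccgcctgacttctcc
SNHG1: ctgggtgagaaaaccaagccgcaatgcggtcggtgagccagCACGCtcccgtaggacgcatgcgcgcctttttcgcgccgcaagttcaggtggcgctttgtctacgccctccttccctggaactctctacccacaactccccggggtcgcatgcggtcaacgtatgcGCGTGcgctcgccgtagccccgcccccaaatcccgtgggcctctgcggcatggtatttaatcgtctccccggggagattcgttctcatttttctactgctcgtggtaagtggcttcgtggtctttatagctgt

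Per kilobase of annotated gene length (RPKM), the host genes spanned a wide range of levels. A single length per gene was used, which need not be that of the transcripts present, so the order depends on the annotation too. In Caco-2 controls ZFAS1, at a mean of 167 CPM, had 20.5 RPKM, while SNHG6, at 39.6 CPM, had 32.4 RPKM. In Caco-2 controls, SNHG29 (87.6 ± 2.07 RPKM, SD, n = 3) and GAS5 (78.3 ± 1.41 RPKM) stood first, followed by SNHG1 (35.5 ± 1.11 RPKM) and SNHG6 (32.4 ± 2.92 RPKM), whose values differed by about their spread. Together, SNHG29 and GAS5 held 29.9% and 18% of all counts of the host genes in Caco-2 controls. In HT-29 controls the order began with SNHG1 (83.6 ± 5.50 RPKM), GAS5 (49.1 ± 7.11 RPKM) and SNHG29 (30.4 ± 1.78 RPKM). SNHG1 alone held 23.5% of the counts of the host genes there. The lowest levels among the 26 host genes with deposited RPKM values in Caco-2 controls were those of SNHG10 (0.791 ± 0.0897 RPKM) and SNHG31 (0.961 ± 0.346 RPKM), which overlapped. RPKM values are set side by side only within a line, since they were scaled in each line separately.

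On the TMM scale, CoCl2 raised most of the measured host genes in Caco-2 cells. Of 29 tested, 16 rose and 6 fell, and the median log2 fold change was 0.69 against -0.03 over all 16034 genes. Over all genes, 31.6% rose and 33.1% fell. By more than 1 on the log2 scale, 6 host genes rose (9.13% of all genes did) and 2 fell (14.2% of all genes). The 6 were SNHG7, ZFAS1, SNHG5, EPB41L4A-AS1, SNHG1 and GAS5. The 2 were SNHG31 and SNHG26, which had 9 to 49 counts in each Caco-2 library. With library totals alone, 13 rose and 9 fell, of which 2 and 3 passed 1. By more than 1, limma on the deposited log2 values gave 4 higher and 0 lower of 26. The share of library counts taken by the host genes was 0.227% to 0.233% in the Caco-2 controls and 0.331% to 0.349% with CoCl2, without overlap. With OD it lay between, at 0.246% to 0.301%.

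**Figure D1:**
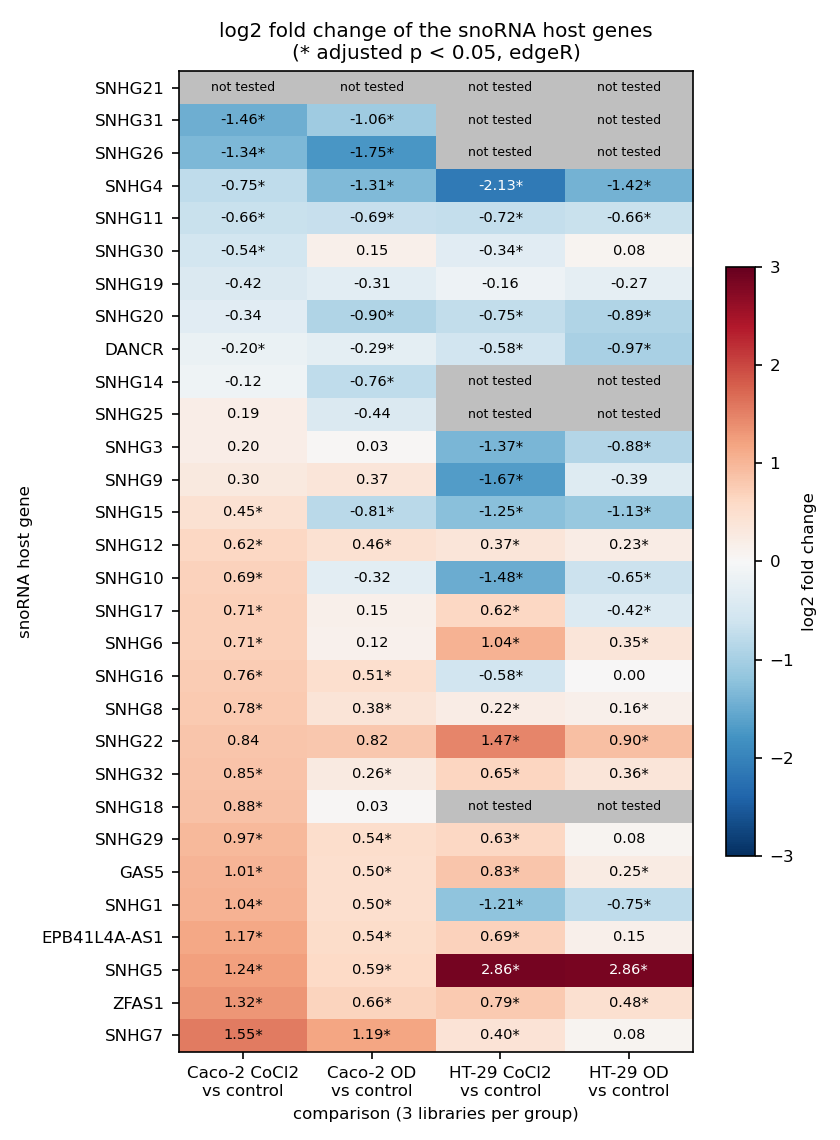
Log2 fold change of the 30 snoRNA host genes (rows, ordered by the first column) in 4 comparisons with control (columns), each of 3 libraries against 3, with an asterisk at an adjusted p under 0.05 and grey where a gene had too few counts to be tested. Among the lower rows, those of GAS5 and ZFAS1 are red across. The rows of SNHG4, SNHG11 and DANCR are blue across, and SNHG1 is red in Caco-2 and blue in HT-29.

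GAS5, a TOP RNA known to build up in arrested cells and to act as a decoy for the glucocorticoid receptor, was at 366, 379 and 370 CPM in the Caco-2 controls. It reached 740, 724 and 782 CPM with CoCl2 and 638, 499 and 442 CPM with OD. All treated libraries lay above all controls. Its log2 fold change was 1.01 ± 0.09 (SE) with CoCl2 (adjusted p = 1.39e-09) and 0.50 ± 0.09 with OD (adjusted p = 9.04e-05). In HT-29 cells GAS5 was at 207, 215 and 269 CPM in the controls, at 423, 409 and 399 CPM with CoCl2 and at 268, 270 and 284 CPM with OD. The CoCl2 libraries stood apart from the controls, whereas the lowest OD library overlapped the highest control. The log2 fold change there was 0.83 ± 0.06 with CoCl2 and 0.25 ± 0.06 with OD (adjusted p = 0.00156).

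ZFAS1 lies antisense to the start of ZNFX1 and carries the SNORD12 family. In Caco-2 cells it was at 163, 163 and 176 CPM in the controls, at 422, 398 and 437 CPM with CoCl2 and at 335, 243 and 214 CPM with OD. The 3 groups did not overlap. The log2 fold change was 1.32 ± 0.11 with CoCl2 (adjusted p = 1.28e-10) and 0.66 ± 0.11 with OD (adjusted p = 1.7e-05). In HT-29 cells ZFAS1 went from 68.6, 74.0 and 91.4 CPM to 141, 138 and 127 CPM with CoCl2 and 112, 106 and 110 CPM with OD, again without overlap with the controls. The log2 fold changes were 0.79 ± 0.07 and 0.48 ± 0.07. ZNFX1 itself rose by 0.19 (Caco-2) and 0.65 (HT-29) with CoCl2 and by 0.28 and 1.11 with OD. On the TMM scale the larger rise was thus with CoCl2 for ZFAS1 and with OD for ZNFX1. With library totals alone, ZFAS1 in HT-29 cells was lower with CoCl2 than with OD (-0.18, adjusted p = 0.0164 by edgeR).

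EPB41L4A-AS1, host of SNORA13, followed the same order in Caco-2 cells. It was at 49.7, 51.8 and 54.1 CPM in the controls, at 118, 111 and 120 CPM with CoCl2 and at 79.5, 74.8 and 72.7 CPM with OD. All 3 groups stood apart, and the rises were 1.17 ± 0.08 and 0.54 ± 0.08 on the log2 scale. In HT-29 cells it rose with CoCl2 (0.69 ± 0.08, adjusted p = 3.58e-09), a rise that did not pass the test when library totals alone set the scale. With OD its log2 fold change of 0.15 did not pass the test (adjusted p = 0.0856). Without the control library of replicate 3, which was at 30.7 CPM where the others were at 24.1 and 24.2 CPM, the OD value was 0.29 (adjusted p = 0.000557).

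SNHG29 was the most abundant host gene in Caco-2 cells. Its levels were 633, 606 and 611 CPM in the Caco-2 controls, 1301, 1134 and 1184 CPM with CoCl2 and 1032, 868 and 781 CPM with OD, with no overlap between groups. The log2 fold changes were 0.97 ± 0.09 and 0.54 ± 0.09. In HT-29 cells it rose with CoCl2 (0.63 ± 0.05, adjusted p = 4.81e-12), a direction that was not kept when library totals alone set the scale, and its OD value of 0.08 did not pass the test (adjusted p = 0.14). Replicate 1 of OD in Caco-2 cells was the highest of its group for SNHG29, GAS5, ZFAS1, SNHG5 and SNHG8.

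SNHG7, host of SNORA17A and SNORA17B, had the largest change of any host gene in Caco-2 cells with a mean of at least 100 counts. It went from 48.8, 53.3 and 47.6 CPM to 165, 136 and 137 CPM with CoCl2 and to 117, 112 and 112 CPM with OD. No group overlapped another. These are log2 fold changes of 1.55 ± 0.09 (adjusted p = 9.09e-14) and 1.19 ± 0.09 (adjusted p = 3.82e-11), and SNHG7 was the only host gene that OD raised by more than 1 on the log2 scale in this line. In HT-29 cells it was at 37.7, 37.5 and 43.6 CPM in the controls, and CoCl2 took it to 53.5, 54.3 and 50.0 CPM, a rise of 0.40 ± 0.06 that turned into a fall of 0.23 when library totals alone set the scale. The difference with OD, 0.08, did not pass the test (adjusted p = 0.262).

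**Figure D2:**
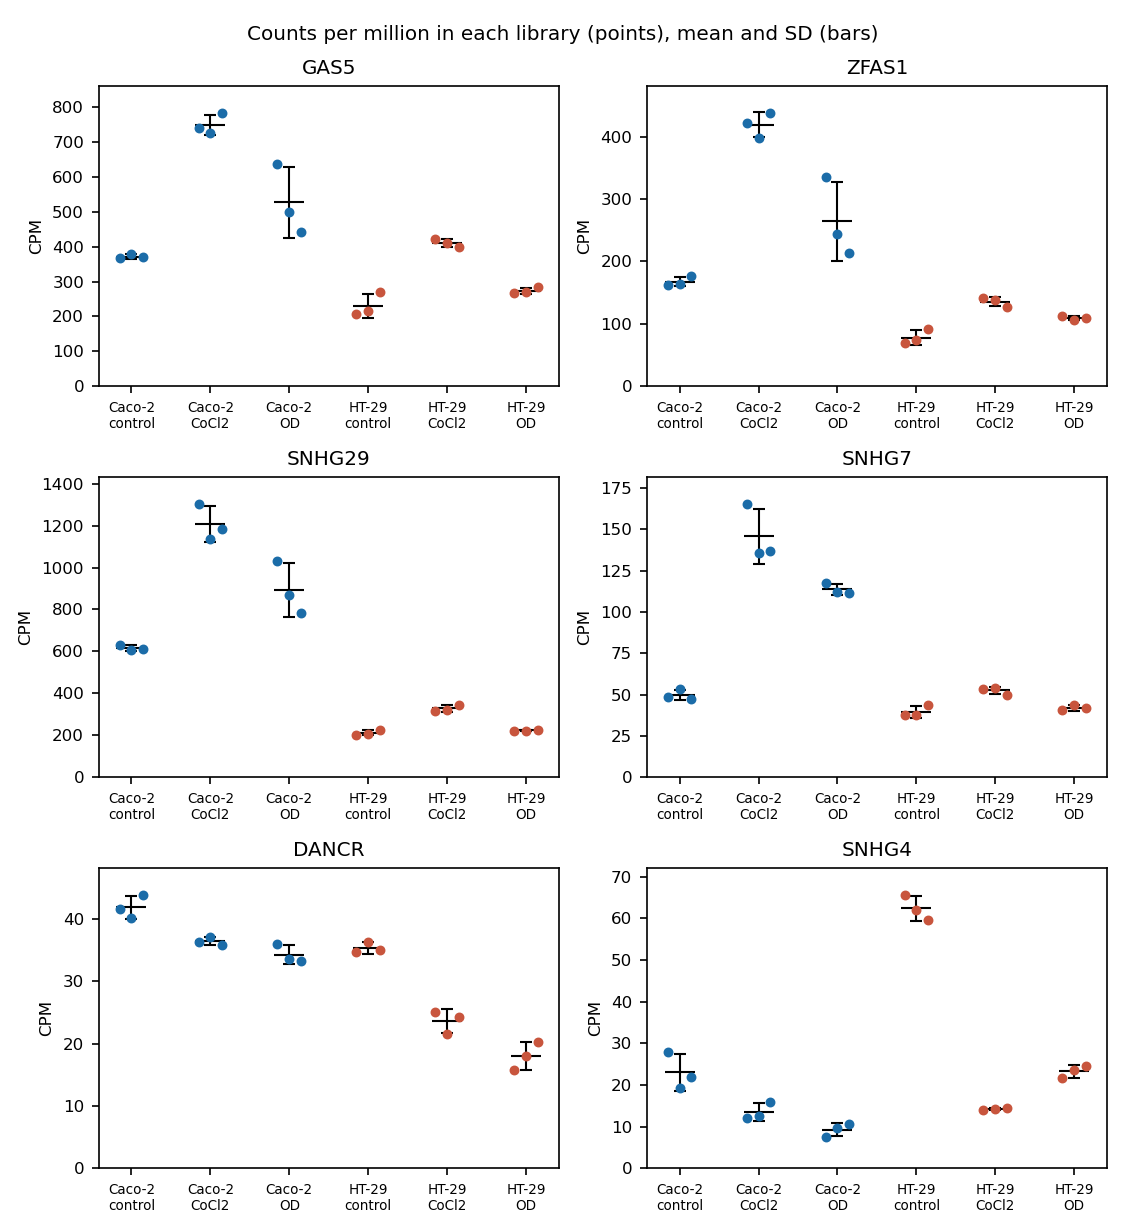
CPM (vertical axes, from 0) of 6 host genes in each library (points, blue for Caco-2 and red for HT-29), with the mean and SD of 3 libraries as bars. GAS5, ZFAS1, SNHG29 and SNHG7 are highest with CoCl2 in both lines (for ZFAS1, SNHG29 and SNHG7 in HT-29 cells only on the TMM scale), whereas DANCR and SNHG4 are highest in the controls of both lines.

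With OD in Caco-2 cells, 11 of 29 host genes rose (25.7% of all genes did) and 8 fell (24.7%), and the median log2 fold change was 0.15 against -0.02 over all genes. By more than 1, SNHG7 rose (4.43% of all genes) and SNHG4, SNHG26 and SNHG31 fell (7.27%). SNHG15, host of SNORA9, was at 24.7, 22.4 and 25.5 CPM in the controls, at 33.1, 31.3 and 35.0 CPM with CoCl2 and at 13.6, 14.7 and 13.3 CPM with OD. On the TMM scale, SNHG15 stood above the controls with CoCl2 and below them with OD. The log2 fold changes were 0.45 ± 0.10 (adjusted p = 0.00032) and -0.81 ± 0.11 (adjusted p = 9.34e-07). SNHG14 was at 186, 174 and 161 CPM in the controls and 92.3, 106 and 110 CPM with OD, a fall of 0.76 ± 0.09 on the log2 scale. With CoCl2, SNHG14 was at 137, 181 and 159 CPM, which overlapped the controls (adjusted p = 0.231). SNHG20, which holds the Cajal body RNA SCARNA16, fell with OD (-0.90 ± 0.16) and had a value of -0.34 with CoCl2 (adjusted p = 0.0554).

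The agents were compared directly within each line. In Caco-2 cells, 18 host genes were higher with CoCl2 than with OD (24.4% of all genes) and 1, SNHG30, was lower (25.2%), with a median log2 difference of 0.51 against -0.01 over all genes. The difference passed 1 for SNHG15 (1.26 ± 0.10) and SNHG10 (1.01 ± 0.18) (5.21% of all genes), and no host gene was lower by more than 1 (6.44%). SNHG5 differed by 0.65 ± 0.10, SNHG14 by 0.63 ± 0.09, and SNHG6 and SNHG32 by 0.59 ± 0.09 each. GAS5 differed by 0.51, ZFAS1 by 0.67 and EPB41L4A-AS1 by 0.62, whereas DANCR differed by 0.09 ± 0.09 (adjusted p = 0.42). The doses were not matched between the agents, and this comparison shares its libraries with those against control.

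With CoCl2 in HT-29 cells, the shares of host genes that rose and fell were near those of all genes. Of 24 tested, 12 rose (40.7% of all genes did) and 11 fell (42.2%), and the median log2 fold change was 0.03 against -0.03 over all genes. By more than 1, SNHG5, SNHG6 and SNHG22 rose (17.4% of all genes), and SNHG4, SNHG9, SNHG10, SNHG3, SNHG15 and SNHG1 fell (23.9%). With OD, 8 rose (34.7% of all genes) and 9 fell (34%), and the median was 0.04 against 0.01. By more than 1, SNHG5 rose (9.5%) and SNHG4 and SNHG15 fell (7.57%). The host genes took 0.154% to 0.177% of the counts in the HT-29 controls and 0.115% to 0.140% with CoCl2. With OD they took 0.135% to 0.179%, which overlapped both. Without SNHG5, left out after its values were seen, they took 0.109% to 0.113% with CoCl2 and 0.125% to 0.131% with OD. In the controls the share was then 0.151% to 0.173%, without overlap between the 3 groups.

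Scaling bears on these directions. If library totals alone are used in place of TMM, the median of all genes moves in Caco-2 cells by -0.32 (CoCl2) and -0.15 (OD), and in HT-29 cells by -0.63 (CoCl2) and -0.14 (OD). In Caco-2 cells 13 host genes then rose and 9 fell with CoCl2, and 8 rose and 9 fell with OD. In HT-29 cells 5 host genes then rose and 15 fell with CoCl2, of which 1 and 10 passed 1. With OD 4 rose and 10 fell there, of which 1 and 5 passed 1. Of the 12 rises with CoCl2, 5 then had the opposite sign, and SNHG12 (-0.26), SNHG8 (-0.41) and SNHG7 (-0.23) passed the test as lower, while SNHG29 and SNHG17 were near 0. GAS5 (0.19), ZFAS1 (0.16), SNHG5 (2.23), SNHG6 (0.40) and SNHG22 (0.84) still passed the test as higher. No rise or fall of the other 3 comparisons with control changed sign. All values in this report are relative to the TMM scale.

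SNHG1, which overlaps no other annotated gene and carries SNORD22 and SNORD25 to SNORD31, was raised in Caco-2 and lowered in HT-29 cells by both agents. In Caco-2 cells it was at 134, 137 and 143 CPM in the controls, 267, 282 and 302 CPM with CoCl2 and 210, 193 and 182 CPM with OD. The HT-29 libraries were at 301, 320 and 344 CPM in the controls, 136, 142 and 140.5 CPM with CoCl2 and 185, 190 and 198 CPM with OD. The treated libraries lay wholly above the controls in the first line and wholly below them in the second. In Caco-2 cells this was a log2 fold change of 1.04 ± 0.08 for CoCl2 and 0.50 ± 0.08 for OD. The HT-29 values were -1.21 ± 0.05 and -0.75 ± 0.05. The difference between the lines was -2.35 ± 0.09 for CoCl2 (adjusted p = 1.89e-20) and -1.27 ± 0.09 for OD (adjusted p = 3.59e-13), tested as an interaction in all 18 libraries.

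SNHG15 was at 44, 49.2 and 54.5 CPM in the HT-29 controls, 23.2, 19.1 and 20.2 CPM with CoCl2 and 22.8, 23.0 and 22.2 CPM with OD. Every treated library lay below every control. The fitted values were -1.25 ± 0.08 for CoCl2 and -1.13 ± 0.07 for OD. The line difference was -1.81 ± 0.13 for CoCl2, where SNHG15 rose in Caco-2 cells, and -0.34 ± 0.13 for OD (adjusted p = 0.0391), which lowered it in both lines.

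SNHG16, host of SNORD1A, SNORD1B and SNORD1C, was at 25.8, 25.9 and 23.4 CPM in Caco-2 controls and 43.3, 41.7 and 42.6 CPM with CoCl2. The HT-29 libraries were at 23.4, 24.1 and 24.9 CPM in the controls and 17.0, 15.8 and 15.8 CPM with CoCl2. The control levels overlapped, also with all 18 libraries scaled together (means of 24.6 CPM in Caco-2 and 25.2 CPM in HT-29 controls). The CoCl2 levels moved apart, in opposite directions. The line difference for CoCl2 was -1.45 ± 0.12 (adjusted p = 1.42e-12). With OD, SNHG16 rose in Caco-2 cells (0.51 ± 0.09) and was level in HT-29 cells at 25.7, 23.8 and 23.1 CPM (log2 fold change 0.00 ± 0.07).

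SNHG3, host of SNORA73A and SNORA73B, was at 77.1, 71.7 and 76.1 CPM in the HT-29 controls, 30.1, 27.7 and 29.0 CPM with CoCl2 and 38.2, 39.7 and 44.4 CPM with OD. The groups stood apart and the falls were 1.37 ± 0.06 and 0.88 ± 0.06 on the log2 scale. In Caco-2 cells SNHG3 was at 33.5, 29.4 and 34.7 CPM in the controls and 40.2, 36.3 and 36.1 CPM with CoCl2 (adjusted p = 0.0769). The line difference was -1.69 ± 0.12 for CoCl2 and -0.93 ± 0.12 for OD. RCC1, which shares its strand and locus, fell by 0.67 and 0.63 in HT-29 cells with CoCl2 and OD, and in Caco-2 cells had a log2 fold change of -0.20 (adjusted p = 0.0534) and rose by 0.39 with OD. SNHG10, at a mean of 4.22 CPM in Caco-2 and 4.83 CPM in HT-29 controls, rose with CoCl2 in the first line (0.69 ± 0.17) and fell in the second (-1.48 ± 0.21).

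**Figure D3:**
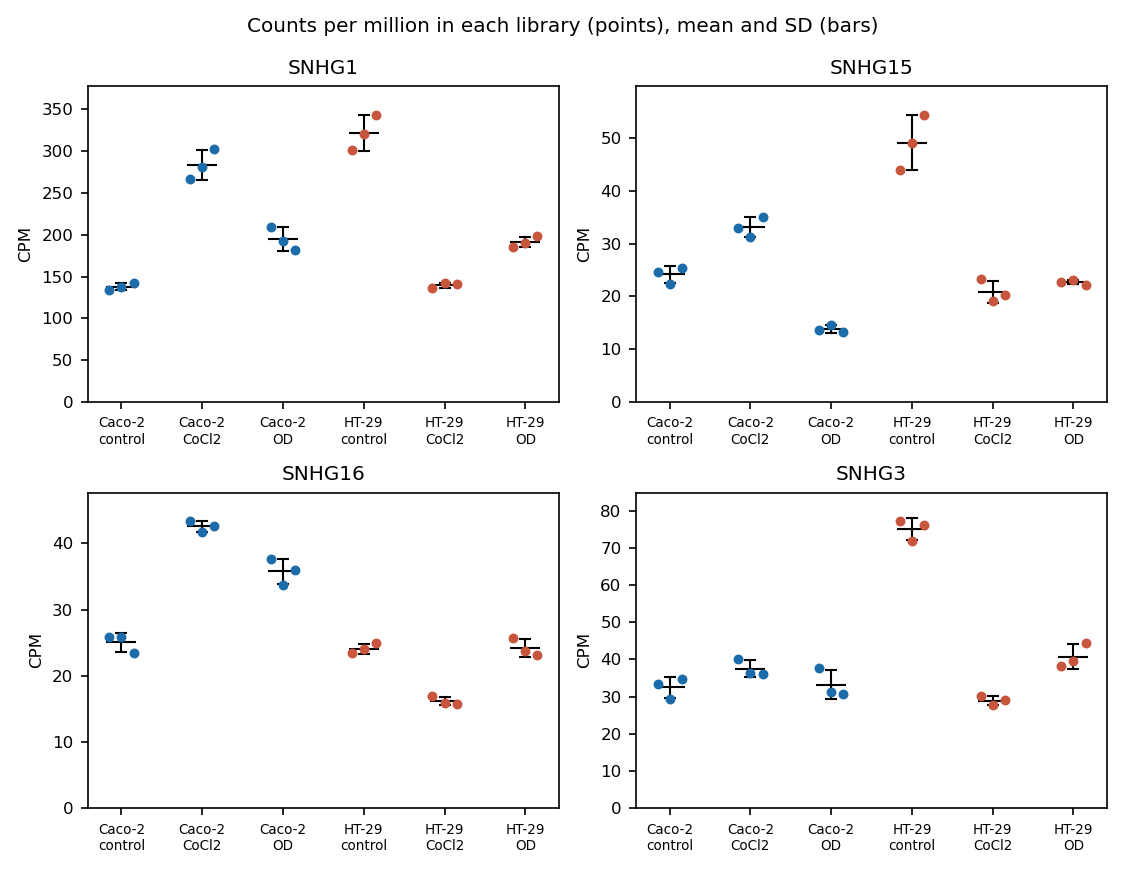
CPM (vertical axes, from 0) of SNHG1, SNHG15, SNHG16 and SNHG3 in each library (points, blue for Caco-2 and red for HT-29), with the mean and SD of 3 libraries as bars. SNHG1 rises from 138 to 284 CPM with CoCl2 in Caco-2 cells and falls from 322 to 140 CPM in HT-29 cells.

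Over all host genes, 15 of 30 had a lower CoCl2 response in HT-29 than in Caco-2 cells (28.6% of all genes) and 0 had a higher one (21.1%) by edgeR. At an unadjusted p under 0.05 the response of SNHG5 was also higher in HT-29 cells. DESeq2 gave 1 higher. By more than 1 on the log2 scale, 8 were lower (13.8%) and 0 higher (7.79%). The median difference was -0.50, against -0.13 over all genes. For OD, 9 were lower (22%) and 1, SNHG5, was higher (20.9%), of which SNHG1 and SNHG7 (6.24%) and SNHG5 (8.96%) passed 1, and the median was -0.25 against 0.01. SNHG4 differed by -1.49 ± 0.17 for CoCl2 and by -0.12 ± 0.16 for OD (adjusted p = 0.596). SNHG7 differed by -1.25 ± 0.11 and -1.12 ± 0.11, and SNHG17 by -0.59 ± 0.11 for OD. ZFAS1 (-0.64 ± 0.15), EPB41L4A-AS1 (-0.58 ± 0.11) and DANCR (-0.49 ± 0.12) had lower CoCl2 responses in HT-29 cells as well, and GAS5 did not pass the test (-0.29 ± 0.13, adjusted p = 0.056).

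**Figure D4:**
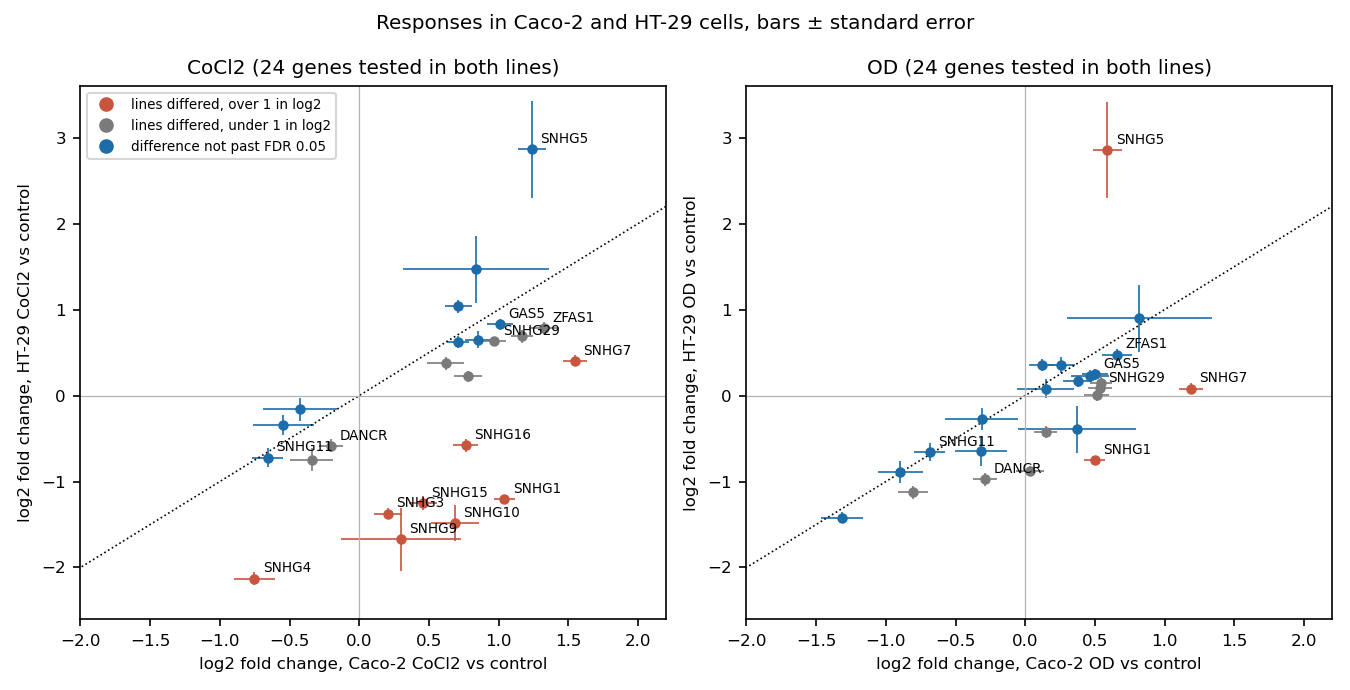
Log2 fold change in HT-29 (vertical) against Caco-2 cells (horizontal) for CoCl2 (left) and OD (right), 1 point for each of 24 host genes tested in both lines, with SE bars and a dotted line where the lines are equal. Colours mark the interaction test as the key gives it, and for CoCl2 SNHG1, SNHG10, SNHG15 and SNHG16 sit right of and below 0.

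Of the 24 host genes tested in both lines, CoCl2 raised 11 in both (in HT-29 cells with library totals alone, 5 of them, named above, had the opposite sign, and EPB41L4A-AS1 at 0.06 and SNHG32 at 0.02 did not pass the test), lowered 4 in both (DANCR, SNHG4, SNHG11 and SNHG30) and moved 4 in opposite directions (SNHG1, SNHG10, SNHG15 and SNHG16). In Caco-2 cells, 13 and not 16 host genes rose with CoCl2 by library totals alone, where the median of all genes moved by -0.32. No Caco-2 rise changed sign, but that shift is large beside the rises of SNHG15 (0.45) and SNHG10 (0.69). OD raised 6 in both lines (GAS5, ZFAS1, SNHG5, SNHG8, SNHG12 and SNHG32), lowered 5 in both (DANCR, SNHG4, SNHG11, SNHG15 and SNHG20) and moved SNHG1 in opposite directions. Those 6 also rose with CoCl2 in both lines. The agents share the control libraries within a line. In the single comparisons with control, 24.7% to 42.2% of all genes passed in a given direction. How many of all genes had these joint patterns was not counted, so the patterns are not read as particular to the host genes.

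DANCR, known as a suppressor of differentiation and as host of SNORA26, fell in all 4 comparisons. In Caco-2 cells it was at 41.5, 40.2 and 43.8 CPM in the controls, 36.2, 37.1 and 35.8 CPM with CoCl2 and 36.0, 33.5 and 33.2 CPM with OD. HT-29 cells had 34.6, 36.3 and 35.0 CPM in the controls, 25.1, 21.5 and 24.2 CPM with CoCl2 and 15.8, 18 and 20.2 CPM with OD. All treated libraries were below the controls of their line, and in HT-29 cells those with OD were the lowest. On the log2 scale the Caco-2 values were -0.20 ± 0.09 for CoCl2 (adjusted p = 0.0434) and -0.29 ± 0.09 for OD. Those of HT-29 cells were -0.58 ± 0.08 and -0.97 ± 0.08. The small Caco-2 value with CoCl2 did not pass when any 1 of the libraries of these groups was left out (adjusted p from 0.0509 to 0.161). ERVMER34-1, on the opposite strand, fell as well, by 2.67 (Caco-2) and 4.01 (HT-29) with CoCl2 and by 1.12 and 1.66 with OD, and its part in the result was not tested.

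SNHG4 hosts SNORA74A and SNORA74D and shares its locus with MATR3 on the same strand. It was at 28.0, 19.2 and 21.9 CPM in the Caco-2 controls, 12.2, 12.6 and 16.0 CPM with CoCl2 and 7.53, 9.73 and 10.6 CPM with OD. HT-29 cells had 65.5, 61.9 and 59.7 CPM in the controls, 14, 14.2 and 14.6 CPM with CoCl2 and 21.6, 23.6 and 24.6 CPM with OD. No group overlapped another within a line, and the lowest group was OD in Caco-2 and CoCl2 in HT-29 cells. In Caco-2 cells SNHG4 fell by 0.75 ± 0.15 with CoCl2 and 1.31 ± 0.15 with OD on the log2 scale. The falls in HT-29 cells were 2.13 ± 0.07 and 1.42 ± 0.06. SNHG11, host of SNORA60 and SNORA71E, fell by 0.66 to 0.72 in all 4 comparisons. SNHG20 fell in HT-29 cells as well, by 0.75 ± 0.13 (CoCl2) and 0.89 ± 0.13 (OD).

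In HT-29 cells, 9 host genes were higher with CoCl2 than with OD (37.1% of all genes) and 7 were lower (40.6%), with a median of 0.13 against -0.07. With library totals alone, 2 were higher and 16 lower. SNHG17, host of the SNORA71 family, was higher by 1.04 ± 0.07 (10.8% of all genes passed 1), as it rose from 27.8, 30.6 and 28.9 CPM in the controls to 46.5, 44.3 and 43.6 CPM with CoCl2 and fell to 23.6, 20.8 and 20.7 CPM with OD. The 3 groups stood apart. SNHG9, at under 31 counts in each HT-29 library, was lower by 1.28 ± 0.39 (19.2% of all genes passed 1). SNHG6 was higher by 0.68 ± 0.07, GAS5 by 0.58 ± 0.06, SNHG29 by 0.55 ± 0.05, EPB41L4A-AS1 by 0.54 ± 0.08, DANCR by 0.39 ± 0.09 and ZFAS1 by 0.31 ± 0.07. SNHG4 was lower by 0.71 ± 0.08 on the log2 scale and SNHG16 by 0.58 ± 0.08. With library totals alone, ZFAS1 was lower with CoCl2 than with OD (-0.18, adjusted p = 0.0164), DANCR had the value -0.11 (adjusted p = 0.257), SNHG7 was lower (-0.17, adjusted p = 0.0163) and SNHG32 had the value -0.21. With the 4 libraries of high SNHG5 described next left out, ZFAS1 (0.22, adjusted p = 0.17) and DANCR (0.27, adjusted p = 0.085) did not pass.

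SNHG5, host of SNORD50A and SNORD50B, has to be read library by library. In Caco-2 cells it was at 59.0, 61.2 and 61.8 CPM in the controls, 142, 134 and 153 CPM with CoCl2 and 112, 83.2 and 78.3 CPM with OD. These were rises of 1.24 ± 0.10 and 0.59 ± 0.10 on the log2 scale. In HT-29 cells it was at 26.9, 32.2 and 30.8 CPM in the controls, at 357, 246 and 51.7 CPM with CoCl2 and at 500, 111 and 40.2 CPM with OD. Every treated library lay above every control, but the replicates of a treatment were far apart. The ratio of the highest to the lowest HT-29 library was 12.5 with OD, the largest of 10499 genes at this level, where the next gene, AC079140.2, had 1.88. With CoCl2 it was 6.91, second of 9315 genes after FN1 at 11.3. In the other 4 groups the ratio for SNHG5 was at most 1.43, and no other host gene compared had a ratio above 1.28 in these 2 groups.

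The fitted log2 fold changes of SNHG5 in HT-29 cells were 2.86 ± 0.57 with CoCl2 (adjusted p = 4.9e-05) and 2.86 ± 0.56 with OD (adjusted p = 6.99e-05). With replicates 1 and 2 of both treatments left out, a choice made after seeing the data that leaves 1 library per treated group, they were 0.79 (adjusted p = 5.06e-07) and 0.42 (adjusted p = 0.00117). The lone library is assumed there to vary as the other groups do. In HT-29 cells 11 host genes then rose and 10 fell with CoCl2, and 6 rose and 8 fell after OD. The line difference with OD, 2.25 ± 0.68 (adjusted p = 0.00744), was 0.72 (adjusted p = 0.273) without replicate 1 of OD in HT-29 cells. The line difference with CoCl2 was 1.52 (adjusted p = 0.0629). SNORD101, a snoRNA in an intron of RPS12, had a similar order in these libraries, with 76, 34 and 4 counts with CoCl2, 92, 33 and 9 counts with OD and 6, 7 and 16 counts in the controls. RPS12 itself was at 761, 736 and 742 CPM with OD. The cause of this spread was not tested.

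**Figure D5:**
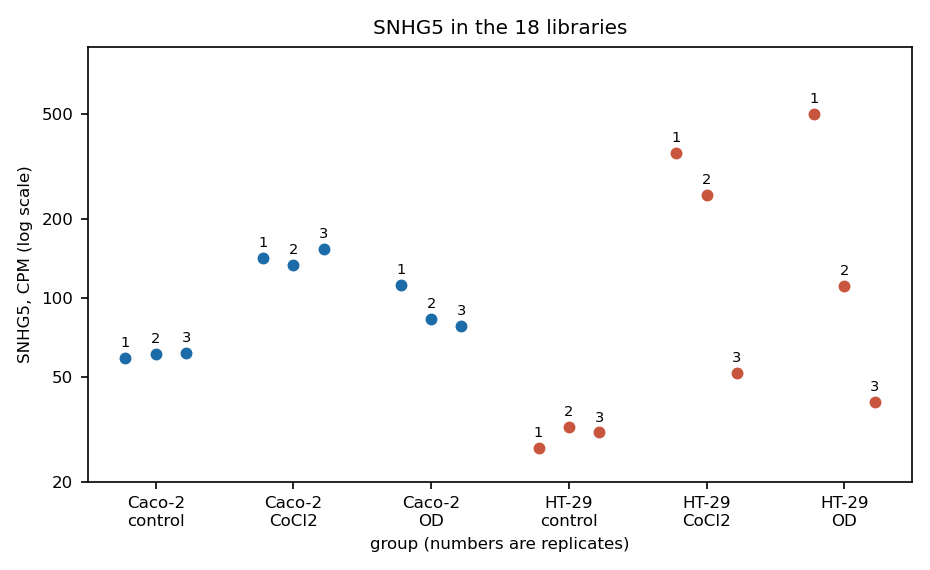
SNHG5 in CPM (log axis) in each of the 18 libraries, labelled by replicate number. The 3 libraries of each Caco-2 group lie close together, whereas those of HT-29 cells span 51.7 to 357 CPM with CoCl2 and 40.2 to 500 CPM with OD, above controls of 26.9 to 32.2 CPM.

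The control groups of both lines were compared with all 18 libraries scaled together. Of 30 host genes, 7 were higher (39.5% of all genes) and 14 lower (39.6%) in HT-29 than in Caco-2 cells, and 4 and 8 of them by more than 1 (21.6% and 24.2%). SNHG14 was at a mean of 171 CPM in Caco-2 and 0.203 CPM in HT-29 controls, where a library had 3 to 6 counts, a log2 difference of -9.63 ± 0.17. SNHG18 had 57 to 74 counts in the Caco-2 controls and 0 in every HT-29 library. Against a floor of 3 counts per library, it was at least 20.0-fold higher in Caco-2 controls. SNHG4 (1.52 ± 0.10), SNHG1 (1.31 ± 0.07), SNHG3 (1.29 ± 0.08) and SNHG15 (1.12 ± 0.09) were higher in HT-29 controls, which are the same libraries that the HT-29 treatments were compared with. SNHG29 (-1.45 ± 0.08), ZFAS1 (-1.0 ± 0.10), EPB41L4A-AS1 (-0.87 ± 0.08) and GAS5 (-0.60 ± 0.09) were lower, and DANCR did not pass the test (-0.15 ± 0.08, adjusted p = 0.0742).

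Low counts limited the remaining host genes. SNHG21, with 0 to 14 counts in a library, could not be tested in either line alone. SNHG14, SNHG18, SNHG25, SNHG26 and SNHG31 were not tested in HT-29 cells, where they had at most 16 counts. SNHG22, at 3 to 16 counts, rose with CoCl2 (1.47 ± 0.39) and OD (0.90 ± 0.39) in HT-29 cells. SNHG19, at 24 to 174 counts, did not pass the test in any comparison with control.

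The host genes can be split by the class of small RNA they hold. With CoCl2, 31.6% of all genes rose and 33.1% fell in Caco-2 cells, and 40.7% rose and 42.2% fell in HT-29 cells. Of the 12 that hold only box C/D snoRNAs, 8 rose and 2 fell with CoCl2 in Caco-2 cells (median 0.81, range -1.34 to 1.32), and of 9 tested in HT-29 cells 5 rose and 3 fell (median 0.63). Of the 11 that hold only box H/ACA snoRNAs, 5 rose and 4 fell in Caco-2 cells (median 0.30, range -1.46 to 1.55), and of 10 tested in HT-29 cells 4 rose and 6 fell (median -0.65). With OD in HT-29 cells the medians were 0.08 for box C/D and -0.54 for box H/ACA hosts. Of the host genes with an oligopyrimidine start, 9 of 13 rose with CoCl2 in Caco-2 and 7 of 11 in HT-29 cells (medians 0.76 and 0.37), and of those without, 5 of 12 and 4 of 10 rose (medians 0.45 and -0.53). SNHG4 and DANCR had such a start and fell. The start of GAS5 and some others in RefSeq may not be the one used in these cells. These splits are descriptions of small groups and were not tested.

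Genes of the same pathways were listed from general knowledge for comparison. Over all genes, 31.6% rose and 33.1% fell with CoCl2 in Caco-2 cells, and 25.7% and 24.7% with OD. In HT-29 cells the shares were 40.7% and 42.2% with CoCl2 and 34.7% and 34% with OD. The counts of every list here and below are to be read beside these shares, and those near them show nothing particular to a list. Ribosomal protein mRNAs, the best known TOP mRNAs, rose with CoCl2 in both lines, 77 of 79 in Caco-2 (median 0.74) and 76 of 79 in HT-29 cells (median 0.80, with 2 lower). With OD, 52 rose and 1 fell in Caco-2 (median 0.27), and 46 rose and 5 fell in HT-29 cells (median 0.15). RPL13A, itself a snoRNA host, rose by 0.69 and 0.91 with CoCl2 in Caco-2 and HT-29 cells, and RPS3 by 0.75 and 0.96. Of 16 TOP translation factors tested, 15 rose with CoCl2 in each line (medians 0.66 and 0.75), with EEF1A1 at 0.91 and 1.11, and with OD 11 rose in Caco-2 and 7 in HT-29 cells. With library totals alone the medians with CoCl2 in HT-29 cells would lie lower by the shift given above.

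Protein-coding snoRNA hosts outside the ribosome, 30 genes of which 8 stand in another of these lists, rose in 21 cases and fell in 2 with CoCl2 in Caco-2 cells (median 0.49), and in HT-29 cells 17 rose and 11 fell (median 0.25). With OD, 11 rose and 3 fell in Caco-2, and 8 rose and 15 fell in HT-29 cells (median -0.17). HSPA8, the constitutive HSC70 chaperone, rose by 1.30 and 2.14 with CoCl2. Of 8 snoRNP core proteins in HT-29 cells, 3 rose and 5 fell with CoCl2 and 6 fell with OD, with DKC1, the pseudouridine synthase, at -1.23 and -1.07 and NOP56 at -0.98 and -0.95. In Caco-2 cells 3 rose and 0 fell with CoCl2 and 1 rose and 1 fell with OD, and FBL, the box C/D methyltransferase, rose by 1.31 and 1.15. Of 11 assembly factors, CoCl2 lowered 6 and raised 1 in HT-29 cells, where OD lowered all 11 (NOLC1 by 0.63 and 1.02), and in Caco-2 cells CoCl2 raised 3 and lowered 3 while OD raised 1 and lowered 4.

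Of 29 genes of RNA polymerase I and ribosome biogenesis, 7 rose and 19 fell with CoCl2 in HT-29 cells and 2 rose and 23 fell with OD (medians -0.67 and -0.56). In Caco-2 cells 11 rose and 9 fell, and 3 rose and 11 fell. DDX21, a nucleolar helicase, rose by 0.29 with CoCl2 in Caco-2 and fell by 0.88 in HT-29 cells. In the MYC network of 11 genes, of which 10 were tested in HT-29 cells, 6 rose in each comparison. CoCl2 lowered 3 in Caco-2 and 4 in HT-29 cells, and OD lowered 2 in each line. MYC, a driver of ribosome production, averaged 44.4, 104 and 53.9 CPM in Caco-2 control, CoCl2 and OD cells and 162, 44.4 and 74.7 CPM in HT-29 cells. MYC, named after its values were seen, had log2 fold changes of 1.23 for CoCl2 and 0.28 for OD in the first line. The values in the second line were -1.87 and -1.12, and SNHG1 had the same 4 signs. Any part of MYC in the levels of the host genes was not tested.

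Of 15 nonsense-mediated decay factors, 5 rose and 3 fell with CoCl2 and 8 rose and 2 fell with OD in Caco-2 cells, and HT-29 cells had 10 up and 5 down (CoCl2) and 3 up and 9 down (OD). SMG1, the kinase of UPF1, rose by 0.81 and 1.45 with CoCl2. Of 6 exon junction complex genes, 4 and 3 rose in Caco-2 cells with CoCl2 and OD, and in HT-29 cells 2 rose and 1 fell with CoCl2 and 1 rose and 4 fell with OD. The hypoxia markers rose in 8 of 8 tested with either agent in Caco-2 cells and, of 9 tested in HT-29 cells, CoCl2 raised 9 and OD raised 7. NDRG1 rose with CoCl2 by 2.87 in Caco-2 and 5.97 in HT-29 cells, and with OD by 2.46 and 2.82. SLC2A1 rose with CoCl2 by 3.20 in Caco-2 and 3.18 in HT-29 cells, and with OD by 2.75 and 0.42. By the interaction test the OD response of 7 of the 9 hypoxia markers was lower and that of 2 was higher in HT-29 than in Caco-2 cells (median -1.71). Of the 6 epithelial markers, CoCl2 raised 6 in Caco-2 and OD raised 5, and HT-29 cells had 5 and 4 higher and 1 lower with each agent. Of the enterocyte markers, 4 fell with CoCl2 in Caco-2 cells, among them VIL1 (-0.85) and SI (-1.33), and 2 rose, and with OD 1 rose and 1 fell. Of the 3 tested in HT-29 cells, 2 fell with each agent, and the part of a change in differentiation in the values of the host genes was not tested. Of the other cell type markers, enough counts for a test were found for 3 in Caco-2 (2 lower with each agent) and 2 in HT-29 cells (1 higher and 1 lower with each). COL1A1, the most abundant, averaged 25.1 CPM in Caco-2 and 1.41 CPM in HT-29 controls.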

How the data were processed

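RNA of 18 samples was sequenced as single-end reads with a stranded mRNA kit. The authors deposited whole-number read counts per gene, and log2 values in a second table. Reads, by the submitters' processing notes and the methods, were trimmed with cutadapt 2.10 and aligned to GRCh38.p13 with STAR 2.7.5b, and counted on GENCODE 34. The counting tool and its use of strand were not given in the sources used here. The deposited log2 values were recomputed from the counts as log2(RPKM + 1) with TMM factors within each line, and 26 host genes are listed for Caco-2 and 22 for HT-29 cells. Deposited miRNA tables were not used here, and 0 per-sample columns were left without a sample.

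Counts were tested with edgeR 4.0.16 (R 4.3.3) by the quasi-likelihood test, two-sided, with TMM scaling and filterByExpr, on the 9 libraries of a line for comparisons within it and on all 18 for the interaction and for the control lines. p-values were adjusted over all genes tested. The thresholds, 0.05 and 1 on the log2 scale, are those of the study. Simulated counts with known changes were recovered by the same fit. DESeq2 1.42.0, limma 3.58.1, other scalings and libraries left out were alternatives. The host genes, the gene lists and the tests were chosen with earlier results of these data known. GAS5, ZFAS1, EPB41L4A-AS1 and DANCR are always named, with up to 5 SNHG genes per comparison of the largest change among those past the test with a mean of at least 100 counts, and up to 3 genes of highest CPM from each other list. Other members are given as counts, ranges and levels, and those named beyond this rule were chosen after their values were seen. Positions and types are from GENCODE 44, small RNAs, starts and promoters from RefSeq (GRCh38.p14).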

Additional observations from a re-analysis of the deposited data

Results flagged for a closer look

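For 9 host genes, the response to an agent differed between the lines by more than 1 on the log2 scale in the interaction test (edgeR, Benjamini-Hochberg adjusted). For CoCl2 the HT-29 response was lower for SNHG1 (-2.35), SNHG10 (-2.28), SNHG9 (-2.07), SNHG15 (-1.81), SNHG3 (-1.69), SNHG4 (-1.49), SNHG16 (-1.45) and SNHG7 (-1.25). For OD it was lower for SNHG1 (-1.27) and SNHG7 (-1.12) and higher for SNHG5 (2.25), the last resting on replicate 1 of OD in HT-29 cells, without which it was 0.72 (adjusted p = 0.273). SNHG9 had at most 32 counts in a library. Groups of 3 were too small for a search for single outlying libraries.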

How the results depend on the processing

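Alternative settings gave 270 counts of host genes, of which 252 stayed within 1.5 times the value reported. With library totals alone, rises in HT-29 cells were 5 for CoCl2 and 4 for OD, and 2 host genes were higher and 16 lower with CoCl2 than with OD. Rises with OD in HT-29 cells were 5 with DESeq2 and with all 18 libraries in 1 fit. In Caco-2 cells 2 host genes were lower with CoCl2 than with OD without a filter, with DESeq2 and with all 18 libraries. Higher CoCl2 responses in HT-29 cells were 2 with RLE size factors and 1 without a filter or with DESeq2, and higher OD responses were 0 with DESeq2. Leaving out 1 library gave 0 to 1 host genes lower with CoCl2 than with OD in Caco-2 cells (0 without OD replicate 1), 0 to 1 higher CoCl2 responses in HT-29 cells (1 without control or CoCl2 replicate 3) and 0 to 2 higher OD responses (0 without OD replicate 1 and 2 without OD replicate 3 of HT-29 cells). With library totals alone, DANCR went to -0.079 in Caco-2 and -0.11 in HT-29 cells, and ZFAS1 to -0.18 in HT-29 cells, for CoCl2 against OD, and without Caco-2 OD replicate 1 the OD line difference of ZFAS1 was 0.0022 (range -0.33 to 0.0022 over libraries left out). The fall of DANCR with CoCl2 in Caco-2 cells was lost with RLE size factors, without a filter, with DESeq2 and with the block. The causes were not tested.

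Correlations between the deviations of same-numbered replicates were -0.24 to 0.25 in Caco-2 (2 of 9 pairs over 0.1) and -0.12 to 0.07 in HT-29 cells (0 of 9). Differently numbered replicates ranged from -0.30 to 0.36 and from -0.11 to 0.11. With so few libraries per group, these values cannot decide whether same-numbered cultures were handled together. SNHG5 had the same replicate order with both agents in HT-29 cells, and the cause was not tested. With the replicate number as a block, the counts that rose and fell in Caco-2 cells were 16 and 5 (CoCl2) and 11 and 8 (OD). In HT-29 cells they were 12 and 11 (CoCl2) and 7 and 9 (OD).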
